A study of Rattus norvegicus with 28 samples.

Results

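Desipramine, fluoxetine and haloperidol are lipophilic basic amines that carry a positive charge at the pH of blood and accumulate in acidic compartments, and they are counted among the cationic amphiphilic drugs. Desipramine is a tricyclic antidepressant with a secondary amine on a propyl chain, fluoxetine is an antidepressant with a secondary amine and an aryl ether, and haloperidol is an antipsychotic butyrophenone with a tertiary amine in a piperidine ring. Diazepam, a benzodiazepine that is essentially uncharged at that pH, was given at the same dose and served as the comparator. The 3 amines account for 18 of the 28 arrays, with 6 arrays each, and were set against 4 arrays of diazepam and 6 of untreated cells. The comparison was the mean of the 3 amine group means minus the diazepam mean, with the untreated mean as the common starting level.

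All arrays hold total RNA of C6, a rat glioma line with astrocyte features. Every group was kept in serum-free medium for 24 h beforehand, and the drugs were then present at 25 µM for 2 h. The untreated cells had the same serum-free period, and no vehicle is stated for them. Replicates are called biological by the labels, which do not say whether they came from separate cultures on separate days, so the p-values measure the spread between these arrays. A p-value for the mean of the amines concerns these 3 drugs and not a drug class.

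Basic amines of this kind cross membranes uncharged, are protonated inside lysosomes and are retained there. On longer exposure they are known to inhibit lysosomal phospholipases, to disturb cholesterol egress from lysosomes and to cause phospholipid storage. Cells under many forms of stress phosphorylate the initiation factor eIF2alpha, which lowers general translation and favours translation of the transcription factor Atf4. Atf4 and its partners then raise genes for amino acid supply, for glutathione turnover and for the later recovery of translation, a programme called the integrated stress response.

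Of 22523 probes, 11364 were detected (detection p under 0.05) on at least 4 arrays and tested, and 9839 to 10537 probes were detected per array. The astrocyte markers Gfap, S100b, Slc1a3, Gja1, Aldoc, Vim and Nes were detected on all 28 arrays. Slc1a2 was detected on 19, and Aqp4, the water channel of mature astrocytes, on none. Of the oligodendrocyte lineage markers with a probe, Cnp, Olig1, Sox10, Pdgfra and Cspg4 were detected on all 28, Olig2 on 19, Mbp on 12, and Mog and Mag on none. Of the fibroblast markers with a probe, Col1a1, Col1a2 and Col3a1 were detected on all 28, and Dcn and Lum on none. Of the microglia markers with a probe, Aif1, Ptprc, Tyrobp and C1qa were detected on no array, Itgam on 9 and Cx3cr1 on 16. Of the neuronal markers, Syp and Snap25 were detected on no array, Tubb3 on 6 and Rbfox3 on 24, and Map2, Nefl, Nefm and Syt1 on all 28. Arrays numbered 5 and 6 stood apart from arrays numbered 1 to 4 in every group on the first principal component, which held 18.7% of the variance. Each group holds both kinds of array, but diazepam has only arrays numbered 1, 4, 5 and 6. Arrays numbered 5 and 6 thus make up a larger share of diazepam than of the other groups. The main fit has no term for the kind of array, and the results were also taken within each kind.

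The response shared by the 3 amines was small, and most of it was absent from the diazepam calls. In limma with Benjamini-Hochberg adjustment over all probes, 62 probes (0.546% of those tested) passed an adjusted p of 0.05 in the same direction with each amine against untreated cells, 43 higher and 19 lower. These 3 comparisons share the untreated arrays. Of the 62 probes, 39 (0.343% of those tested) also differed from diazepam in the same direction, and 37 (0.326% of those tested) did so without passing in diazepam against untreated cells. The 37 comprised 32 higher probes and 5 lower ones, and 36 of them carry a gene symbol. Each amine taken alone also differed from diazepam for 19 of the 37, in limma adjusted over all probes and 6 drug pairs.

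Not passing with diazepam is not the same as no change, so the diazepam change of each of the 37 was read with its 95% interval. The interval included 0 in 28 of them, and its bound on the side of the amine change lay below 50% of the amine mean change in 18. The diazepam change ran against the amines in sign in 12. In 6 genes, Chac1, Trib3, Atf4, Ppp1r15a, Srf and Slc3a2, diazepam moved the same way as the amines at an unadjusted p under 0.05. In Chac1, Trib3 and Atf4 every diazepam array lay above every untreated array. The lowest diazepam and highest untreated values were 5.68 and 5.40 (Chac1), 5.97 and 5.91 (Trib3), and 10.45 and 10.43 (Atf4). In Ppp1r15a, Srf and Slc3a2 the arrays of both groups overlapped. These 6 are thus not shown to be free of a smaller diazepam response. Among the 32 higher members the median log2 change from untreated cells was 0.52 with desipramine, 0.92 with fluoxetine and 0.54 with haloperidol, against 0.05 with diazepam. The members were chosen for amine changes without a diazepam call, so the gap between amines and diazepam follows from the choice and is a description.

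**Figure D1:**
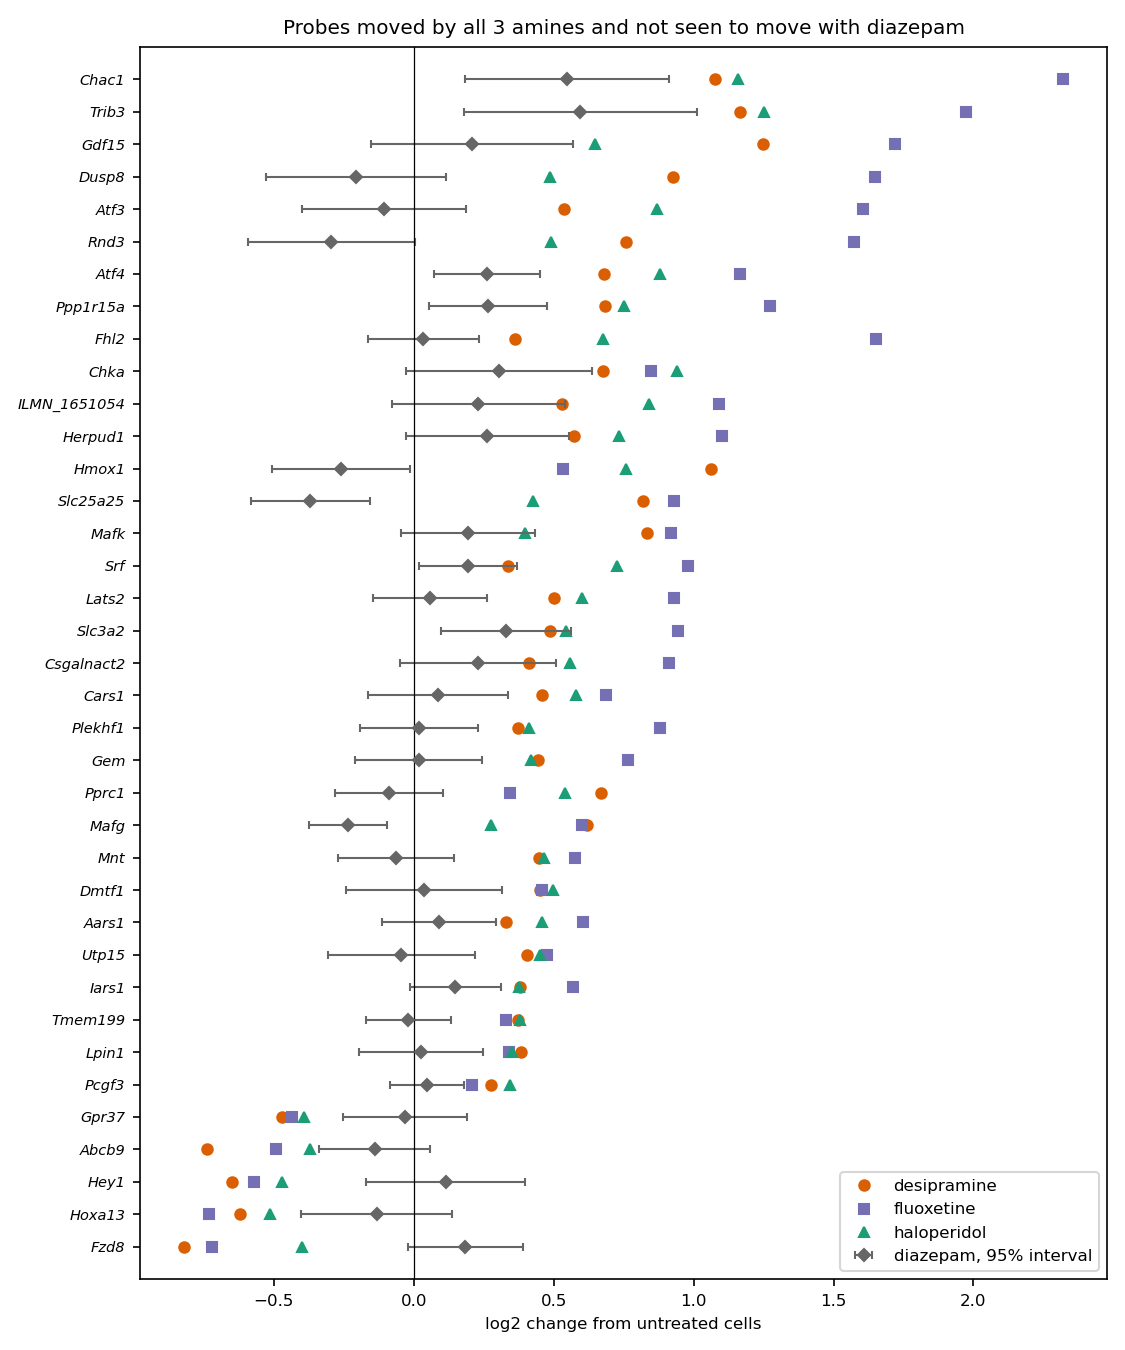
Log2 change from untreated cells (horizontal axis) of the 37 probes moved by all 3 amines and not called with diazepam, 1 probe per row; circles, squares and triangles are desipramine, fluoxetine and haloperidol, and grey diamonds with bars are diazepam with its 95% interval. Among the higher members fluoxetine is mostly farthest to the right, with a median of 0.92, and diazepam lies around 0.05. The gap between amines and diazepam follows from how the members were chosen.

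The 3 members with the largest mean amine change over untreated cells were Chac1, Trib3 and Gdf15, genes of the integrated stress response. Chac1, a glutathione-degrading enzyme, and Trib3, a pseudokinase that binds Atf4, rose 2.86-fold and 2.76-fold in the amine mean over untreated cells, and Gdf15, a secreted stress cytokine, was detected with the amines and not with diazepam or without drug. Atf4 itself, Atf3, a transcription factor that Atf4 induces, Ppp1r15a, the eIF2alpha phosphatase subunit also called Gadd34, and Herpud1, a component of protein disposal at the endoplasmic reticulum, rose as well. Of the 17 measured genes of this list, 11 were higher and 0 lower with the amine mean against untreated cells, where 2.68% of all named genes were called higher and 1.51% lower. Against diazepam 8 were higher and 1 was lower, beside 3.47% and 2% of all named genes, and the list median was 0.27 against -0.0029 over all 7958 named genes. With diazepam against untreated cells 0 of the 17 passed in limma, 7 had an unadjusted p under 0.05, and the median was 0.22, beside 0.377% of all named genes called higher and 0.478% lower. By drug over untreated cells, 10 were higher with desipramine, 11 with fluoxetine and 7 with haloperidol, beside 3.97%, 2.64% and 2.59% of all named genes.

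The 250 bases before the annotated start of 30 of the 37 members were searched in RefSeq promoters of the GRCr8 rat assembly for the C/EBP-ATF element, the composite site through which Atf4 acts, written as TGATGNAA on either strand. The element was present in 5 of the 30, namely Chac1, Trib3, Herpud1, Aars1 and Iars1, and in 3.4% of all 33469 promoters of that length. The promoters of these 5 genes are shown because they hold the match, whereas moving with all amines is shared by all 37 members. Each is printed in the direction of transcription and ends at the base before the start, and the capitals mark the match, which in all 5 lies on the opposite strand.
Chac1 (chr3:126795881-126796130, plus strand): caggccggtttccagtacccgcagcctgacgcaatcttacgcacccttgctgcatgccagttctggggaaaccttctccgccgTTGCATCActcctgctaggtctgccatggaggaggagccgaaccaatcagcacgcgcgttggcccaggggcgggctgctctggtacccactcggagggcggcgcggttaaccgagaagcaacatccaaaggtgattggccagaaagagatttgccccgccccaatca
Trib3 (chr3:161275534-161275783, minus strand): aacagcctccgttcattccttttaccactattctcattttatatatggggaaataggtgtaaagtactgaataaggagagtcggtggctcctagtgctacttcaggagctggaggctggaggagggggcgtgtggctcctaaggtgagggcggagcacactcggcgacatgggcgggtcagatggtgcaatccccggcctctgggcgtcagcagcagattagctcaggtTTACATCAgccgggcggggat
Herpud1 (chr19:10614708-10614957, minus strand): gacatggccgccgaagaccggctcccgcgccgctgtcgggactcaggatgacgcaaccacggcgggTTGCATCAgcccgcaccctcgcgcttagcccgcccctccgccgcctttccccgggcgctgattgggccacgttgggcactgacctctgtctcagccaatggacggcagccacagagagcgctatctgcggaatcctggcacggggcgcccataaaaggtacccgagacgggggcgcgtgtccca
Aars1 (chr19:55908232-55908481, plus strand): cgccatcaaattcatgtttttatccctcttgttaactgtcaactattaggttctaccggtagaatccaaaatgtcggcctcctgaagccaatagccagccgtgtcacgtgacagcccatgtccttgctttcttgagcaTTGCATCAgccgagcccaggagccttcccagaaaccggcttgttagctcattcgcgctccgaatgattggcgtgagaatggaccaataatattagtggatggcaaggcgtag
Iars1 (chr17:15193653-15193902, minus strand): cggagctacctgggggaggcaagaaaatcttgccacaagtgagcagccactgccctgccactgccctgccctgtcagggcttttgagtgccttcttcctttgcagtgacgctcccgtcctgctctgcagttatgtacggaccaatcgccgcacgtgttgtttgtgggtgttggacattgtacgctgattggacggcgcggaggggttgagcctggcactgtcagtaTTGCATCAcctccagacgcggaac

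The matches begin at position -167 (Chac1), -21 (Trib3), -184 (Herpud1), -112 (Aars1) and -24 (Iars1), counted from the transcription start. A match is a string of letters, and its occupancy was not measured. Of the other motifs searched on both strands, the cAMP response element TGACGTCA was found for Ppp1r15a, Slc25a25 and Plekhf1, with 1.59% of all promoters holding it. The antioxidant response element TGACNNNGC was found in 6 members and in 10.08% of all promoters, the lysosomal CLEAR element TCACGTGA in 2 and 0.66%, and the sterol response element TCACNCCAC in 1 and 0.97%. In Aars1 the antioxidant and CLEAR matches overlap, and in no other promoter of the set do matches to different motifs overlap.

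Chac1 (probe ILMN_1368718) had log2 intensities of 5.97 to 6.78 (median 6.42) with desipramine, 7.36 to 8.04 (median 7.61) with fluoxetine and 5.84 to 7.01 (median 6.60) with haloperidol. It read 5.68, 5.72, 5.93 and 6.10 with diazepam and 5.18 to 5.40 (median 5.32) in untreated cells. All fluoxetine arrays lay above every diazepam array, whereas the lowest desipramine and haloperidol arrays overlapped with diazepam, and all drug-treated arrays lay above all untreated ones. The amine mean exceeded diazepam by 0.97 ± 0.15 (log2 ± SE, limma, adjusted p = 0.000104), and diazepam exceeded untreated cells by 0.55 ± 0.18 (limma, adjusted p = 0.194).

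Trib3 (ILMN_1349221) gave 6.55 to 7.31 (median 6.93) with desipramine, 7.44 to 8.15 (median 7.73) with fluoxetine and 6.11 to 7.47 (median 7.24) with haloperidol. The diazepam arrays read 5.97, 6.12, 6.41 and 7.02, and the untreated ones 5.67 to 5.91 (median 5.77). All fluoxetine arrays lay above the highest diazepam array, whereas the desipramine and haloperidol ranges overlapped with that of diazepam. The amines exceeded diazepam by 0.87 ± 0.17 (limma, adjusted p = 0.00216). Diazepam itself was 0.60 above untreated cells, the largest diazepam rise among the 32 higher members, and its arrays lay above all untreated ones. In a fit that took the replicate number as a block, Trib3 left the set, although the amine mean still passed against diazepam.

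Gdf15 (ILMN_1351674) was detected on 17 of the 18 amine arrays, and on none with diazepam or without drug. Its log2 intensity was 5.65 to 6.51 (median 6.24) with desipramine, 6.19 to 7.34 (median 6.50) with fluoxetine and 5.16 to 6.11 (median 5.51) with haloperidol. The undetected diazepam arrays read 4.90, 5.17, 5.18 and 5.22 and the undetected untreated arrays 4.76 to 5.02 (median 4.93). The desipramine and fluoxetine arrays lay above all of these, and the lowest haloperidol array fell among the diazepam ones. The amine mean was at least 1.78-fold that of diazepam and at least 1.81-fold that of untreated cells, computed against the lowest signal detected on each array (limma, adjusted p = 7.24e-05 and 2.31e-07). By drug, the bound over untreated cells was 1.86-fold with desipramine, 2.58-fold with fluoxetine and 1.23-fold with haloperidol.

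Atf4 (ILMN_1375100) was among the 10 members in which every amine array lay beyond every diazepam and every untreated array, which held for 12 of all tested probes (0.106%). It read 10.83 to 11.13 (median 10.94) with desipramine, 11.28 to 11.57 (median 11.43) with fluoxetine and 10.92 to 11.32 (median 11.21) with haloperidol, against 10.45, 10.46, 10.59 and 10.66 with diazepam and 9.95 to 10.43 (median 10.32) without drug. Its amine mean was 1.57-fold that of diazepam (0.65 ± 0.08, limma, adjusted p = 2.87e-06) and 1.88-fold that of untreated cells. Ppp1r15a behaved alike, at 0.64 ± 0.09 over diazepam (limma, adjusted p = 1.7e-05), and its amine and diazepam arrays met at the edge, with lowest and highest values of 8.05 on both sides.

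Atf3 (ILMN_1363083) had a diazepam change from untreated cells of -0.11 and a 95% interval of -0.40 to 0.18. Its log2 intensity was 6.52 to 7.36 (median 6.91) with desipramine, 7.60 to 8.27 (median 8.05) with fluoxetine and 6.77 to 7.46 (median 7.31) with haloperidol. With diazepam it read 6.08, 6.17, 6.33 and 6.48, and without drug 6.18 to 6.59 (median 6.38). All amine arrays lay above all diazepam arrays, and of the amines only desipramine overlapped with untreated cells. The amines exceeded diazepam 2.16-fold (1.11 ± 0.12, limma, adjusted p = 5.41e-07). Herpud1 rose 1.45-fold over diazepam (0.54 ± 0.12, limma, adjusted p = 0.00724), and lost its call without diazepam array 5 (adjusted p = 0.0673).

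**Figure D2:**
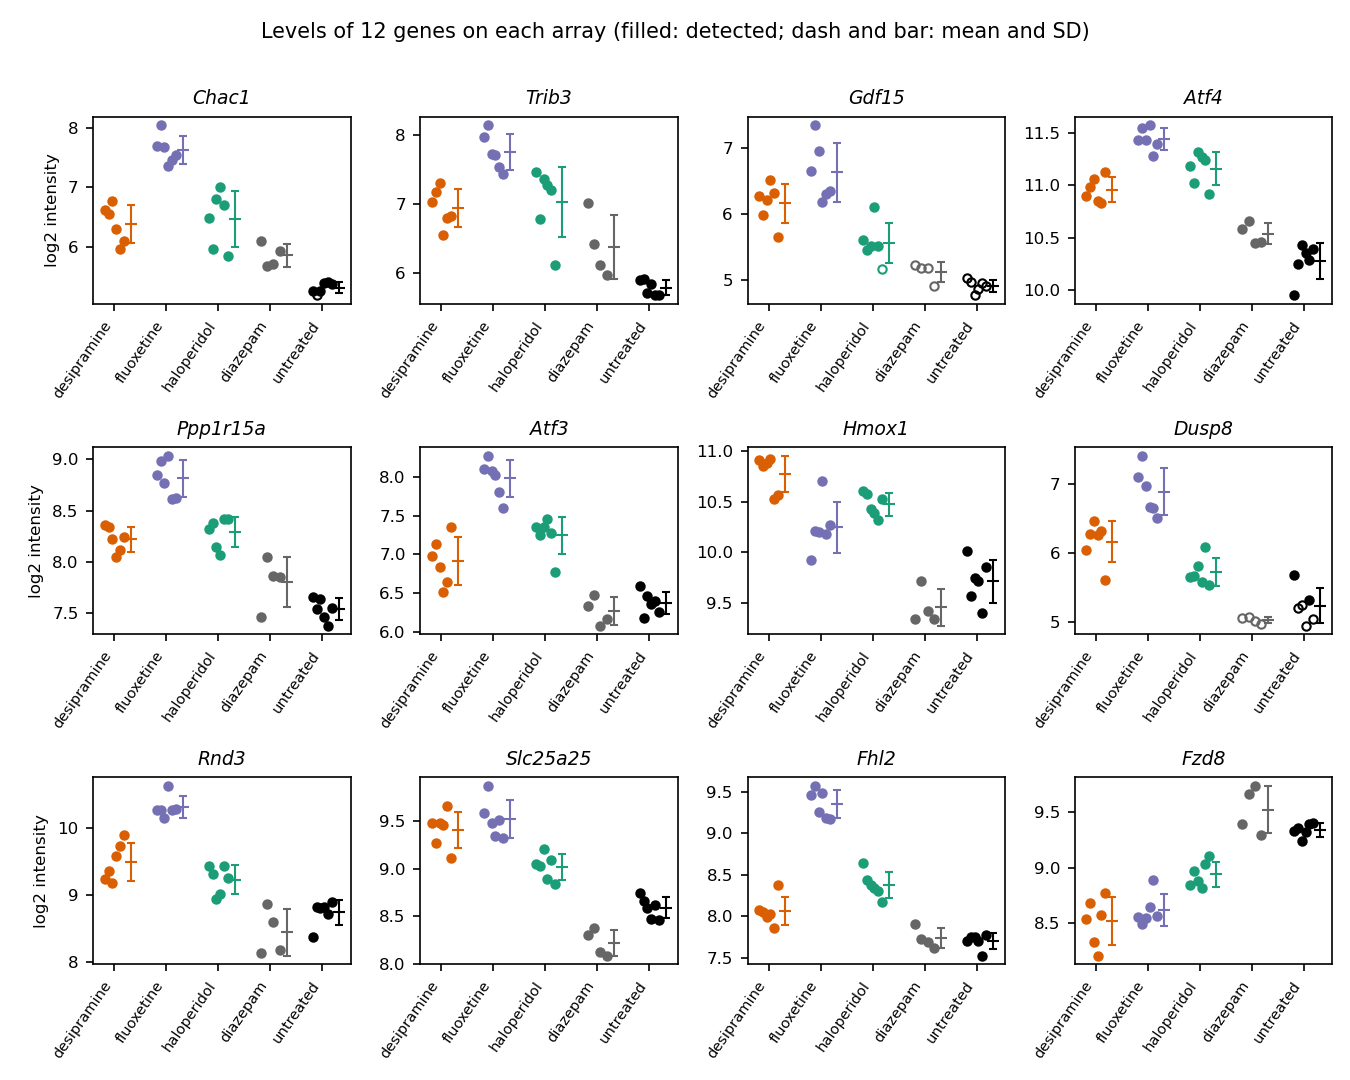
Log2 intensity (vertical axis) of 12 genes on each of the 28 arrays, with desipramine, fluoxetine, haloperidol, diazepam and untreated cells from left to right; open points were not detected, and dashes with bars are group means with SD. Atf4 shows all amine arrays above the diazepam arrays, which end at 10.66, and Gdf15 shows open points for all diazepam and untreated arrays.

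Ddit3, the transcription factor CHOP, belonged to the same list but not to the shared response. It rose by 0.57 with desipramine and 1.50 with fluoxetine, and its haloperidol change of 0.34 had an adjusted p of 0.134 in limma, close to the diazepam change of 0.36. Ddit4, an inhibitor of mTOR signalling, was the only list member lower with the amines than with diazepam, by -0.46 ± 0.13 (limma, adjusted p = 0.0399), its diazepam change from untreated cells being 0.50 and its amine mean change 0.04. Ddit3 and Ddit4 were picked for description after their values were seen.

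Of 22 measured genes of amino acid supply and tRNA charging, 6 were higher and 0 lower with the amine mean against untreated cells, beside 2.68% and 1.51% of all named genes. Against diazepam 3 were higher and 0 lower, beside 3.47% and 2%, with a median of 0.11. Aars1, alanyl-tRNA synthetase, was 0.37 ± 0.08 above diazepam (limma, adjusted p = 0.0073), and Slc3a2, the heavy chain of the large amino acid exchanger, 0.33 ± 0.10 (limma, adjusted p = 0.0455). Aars1 lost its place in the set when any of 5 single arrays was left out (desipramine 1, 2 or 3, untreated 5 or diazepam 5, adjusted p 0.0504 to 0.0753). Slc3a2 lost its call against diazepam without any of 19 single arrays (adjusted p 0.0512 to 0.307). Slc7a5, the light chain of the same exchanger, was raised by each amine yet was not set apart from diazepam, with 0.52 in the amine mean and 0.49 with diazepam over untreated cells. The further synthetases Cars1 and Iars1 are in the set at 0.49 and 0.29 over diazepam, and Cars1 did not pass without diazepam 5 (limma, adjusted p = 0.0535).

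Dusp8, a phosphatase of stress-activated MAP kinases, was detected on all 18 amine arrays, 2 of 6 untreated arrays and none of the diazepam arrays. It read 5.61 to 6.46 (median 6.27) with desipramine, 6.50 to 7.41 (median 6.81) with fluoxetine and 5.53 to 6.08 (median 5.66) with haloperidol, against 4.96, 5.01, 5.06 and 5.07 with diazepam and 4.94 to 5.67 (median 5.21) without drug. Every amine array lay above every diazepam array, while desipramine and haloperidol overlapped with untreated cells. The amine mean was at least 1.96-fold that of diazepam (limma, adjusted p = 5.22e-07). Against untreated cells the haloperidol change of 0.49 was marginal (limma, adjusted p = 0.0443) and did not pass when any of 13 single arrays was left out (adjusted p 0.0508 to 0.133).

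Rnd3, a small GTP-binding protein that opposes RhoA, read 9.18 to 9.90 (median 9.47) with desipramine, 10.15 to 10.64 (median 10.28) with fluoxetine and 8.94 to 9.44 (median 9.28) with haloperidol. It read 8.13, 8.18, 8.60 and 8.87 with diazepam and 8.38 to 8.91 (median 8.81) in untreated cells. All 18 amine arrays lay above both other groups. Rnd3 had a diazepam mean of 8.45, below its untreated mean of 8.74, and its amine mean exceeded diazepam by 1.24 ± 0.12 (2.36-fold, limma, adjusted p = 1.03e-07). Its haloperidol change from untreated cells of 0.49 did not pass without haloperidol 1, 2 or 5 or untreated 1 or 5 (limma, adjusted p 0.0512 to 0.0801). Slc25a25, a calcium-regulated mitochondrial ATP carrier, was 9.11 to 9.66 (median 9.47) with desipramine, 9.32 to 9.87 (median 9.50) with fluoxetine and 8.84 to 9.21 (median 9.04) with haloperidol, against 8.09, 8.12, 8.30 and 8.37 with diazepam and 8.46 to 8.74 (median 8.61) without drug. Here too the amine arrays lay above both other groups without overlap, with 1.10 ± 0.09 over diazepam (limma, adjusted p = 1.12e-09), of which the diazepam change of -0.37 from untreated cells was a part.

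Fhl2, a LIM-domain cofactor, and Srf, the serum response factor, rose with all amines and most with fluoxetine. Fhl2 had 7.86 to 8.37 (median 8.04) with desipramine, 9.17 to 9.57 (median 9.36) with fluoxetine and 8.17 to 8.64 (median 8.36) with haloperidol, against 7.62, 7.69, 7.73 and 7.90 with diazepam and 7.52 to 7.78 (median 7.73) in untreated cells. The fluoxetine arrays formed a group of their own, and the lowest desipramine array lay within the diazepam range. The amine mean exceeded diazepam by 0.86 ± 0.08 for Fhl2 (limma, adjusted p = 5.84e-08) and by 0.49 ± 0.07 for Srf (limma, adjusted p = 6.98e-05). Gem, a small GTPase that limits calcium channels, was higher by 0.53 (limma, adjusted p = 0.000664).

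Hmox1, the haem-degrading enzyme heme oxygenase, followed another order among the amines. It read 10.53 to 10.93 (median 10.86) with desipramine, 9.93 to 10.70 (median 10.21) with fluoxetine and 10.31 to 10.61 (median 10.48) with haloperidol, against 9.34, 9.34, 9.42 and 9.72 with diazepam and 9.40 to 10.01 (median 9.73) without drug. All amine arrays exceeded all diazepam arrays, and of the amines only fluoxetine overlapped with untreated cells. The amine mean was 2.06-fold that of diazepam (1.04 ± 0.10, limma, adjusted p = 9.98e-08), the diazepam mean of 9.46 lying below the untreated mean of 9.72. Hmox1 was the only one of 12 measured genes of the Nrf2 list to pass against diazepam, beside 3.47% higher and 2% lower of all named genes. Mafk, a small Maf protein that partners Nrf2 and Bach factors, was 0.52 ± 0.10 above diazepam (limma, adjusted p = 0.00135). Its haloperidol change of 0.40 was lost without any of 8 single arrays, haloperidol 1, 2 or 5 or untreated 2, 3, 4, 5 or 6 (limma, adjusted p 0.0541 to 0.0801). Mafg, another small Maf, was 0.73 above diazepam and separated all amine arrays from the other arrays. Its diazepam mean of 11.22 lay below its untreated mean of 11.45.

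Lipid genes contributed 2 members. Chka, choline kinase, which starts phosphatidylcholine synthesis, read 8.38 to 8.99 (median 8.42) with desipramine, 8.48 to 8.91 (median 8.73) with fluoxetine and 8.28 to 9.23 (median 8.82) with haloperidol, against 7.80, 8.02, 8.25 and 8.66 with diazepam and 7.51 to 8.12 (median 7.96) without drug. The amine arrays lay above all untreated arrays and overlapped with 1 diazepam array. The difference from diazepam of 0.52 ± 0.14 passed (limma, adjusted p = 0.0258) but not without diazepam 1, 4 or 5 (adjusted p 0.0519 to 0.165). Lpin1, a phosphatidate phosphatase, was 0.33 above diazepam (limma, adjusted p = 0.0335), did not pass there without diazepam 1, 4 or 5 (adjusted p 0.0831 to 0.138), and lost its fluoxetine call without any of 12 single arrays and its haloperidol call without any of 6. Sgms1, sphingomyelin synthase, passed against diazepam at 0.28 (limma, adjusted p = 0.0415, and in 17 of the 28 fits that left out 1 array). Chka, Lpin1 and Sgms1 were the 3 of 17 phospholipid and sphingolipid genes higher than with diazepam, and 0 were lower. Of all named genes, 3.47% were higher and 2% lower.

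The 5 lower members were Fzd8, Hey1, Hoxa13, Gpr37 and Abcb9. Fzd8, a Wnt receptor, read 8.21 to 8.77 (median 8.56) with desipramine, 8.50 to 8.89 (median 8.56) with fluoxetine and 8.82 to 9.11 (median 8.93) with haloperidol, against 9.30, 9.39, 9.67 and 9.74 with diazepam and 9.24 to 9.40 (median 9.35) without drug. Every amine array lay below every other array, and the difference from diazepam was -0.83 ± 0.09 (limma, adjusted p = 1.73e-07). Hey1, a repressor downstream of Notch and BMP signals, differed from diazepam by -0.68 ± 0.12 (limma, adjusted p = 0.000455). Its haloperidol change of -0.47 did not pass without haloperidol 5 or 6 or untreated 2 or 4 (limma, adjusted p 0.0537 to 0.0797).

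The remaining 3 lower members had smaller differences. Hoxa13, a homeobox factor, was -0.49 ± 0.11 from diazepam (limma, adjusted p = 0.00864) and did not pass without diazepam 6 (adjusted p = 0.102). Gpr37, an orphan receptor of glia, was -0.40 ± 0.09 (limma, adjusted p = 0.00891) and did not pass without diazepam 4 or 6 (adjusted p 0.0577 and 0.0659). Abcb9, a peptide transporter of the lysosomal membrane, was -0.39 ± 0.08 (limma, adjusted p = 0.00358), with desipramine lowest at -0.74 from untreated cells.

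The other members are given by symbol to account for the set. Lats2, a Hippo pathway kinase, Pprc1, a coactivator of mitochondrial gene expression, and Mnt, a Max-binding repressor, rose by 0.62, 0.61 and 0.56 over diazepam, and in each all amine arrays lay above the other 2 groups. Csgalnact2, Plekhf1, Dmtf1, Utp15, Tmem199, Pcgf3 and an unnamed probe, ILMN_1651054, were 0.23 to 0.59 above diazepam. A further probe of Dmtf1 was 0.24 above diazepam without passing (limma, adjusted p = 0.174) and passed over untreated cells in the amine mean at 0.31 (adjusted p = 0.0285). A further probe of Tmem199 was at -0.03 from diazepam (limma, adjusted p = 0.961) and 0.01 from untreated cells. Csgalnact2 lost its call against diazepam without any of 18 single arrays (limma, adjusted p 0.0504 to 0.136). Dmtf1, Utp15 and Pcgf3 left the set without any of 11, 11 and 10 single arrays, and ILMN_1651054 without diazepam 5 (limma, adjusted p = 0.0547). Of the 37, 20 stayed in the set whichever of the 28 arrays was left out, with 26 to 36 members staying per fit.

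Within the arrays numbered 1 to 4, 21 of the 37 members passed for the amines minus diazepam, beside 137 probes called in all, and within the arrays numbered 5 and 6, 10 passed, beside 58 called. The members were chosen on these same arrays, so both counts are a description. Diazepam had 2 arrays in each of these subsets. In a fit with a term for arrays numbered 5 and 6, chosen after seeing the data, 35 of the 37 members stayed in the set. All 37 passed there for the amines minus diazepam, which is a description too. Whether the kind of array contributes to the size of single members was not tested further.

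A smaller group of shared changes could not be set apart from diazepam. It held 23 of the 62 common probes, 9 higher and 14 lower, and diazepam itself passed in the same direction in 6. Noct, the clock-controlled nocturnin, changed by 0.82 with the amines and 0.75 with diazepam, Rasd1, a Ras-related protein, by -0.77 and -0.92, Btbd3 by -0.65 and -0.59, and Lurap1l by -0.50 and -0.65. Siah2, a ubiquitin ligase of the hypoxia and stress pathways, and Pvr, the poliovirus receptor, differed from diazepam (0.43 and 0.36, limma, adjusted p = 0.00333 and 0.0314) although diazepam raised both over untreated cells. These genes were chosen for description after their values were seen. Set apart from diazepam were 34 of 43 higher probes and 5 of 19 lower ones, a count without a test of the difference. It depends on the fit: with the replicate number as a block, 52 of 71 higher and 24 of 46 lower common probes were set apart.

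The wider contrast of the amine mean with diazepam called 535 probes (4.71%), 331 higher (2.91%) and 204 lower (1.8%). With the values that the authors had normalized, 504 were called and the higher share was 73.0% instead of 61.9%. Of the 535, 162 also passed for the amine mean against untreated cells, 61 passed for diazepam against untreated cells, 6 passed for both and 318 for neither. The count was 287 without diazepam array 6 and 293 without diazepam array 5. Diazepam alone changed 90 probes (0.792%) from untreated cells, against 635 (5.59%) with desipramine, 426 (3.75%) with fluoxetine and 424 (3.73%) with haloperidol. Diazepam had fewer arrays, so these counts do not compare the sizes of the responses.

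**Figure D3:**
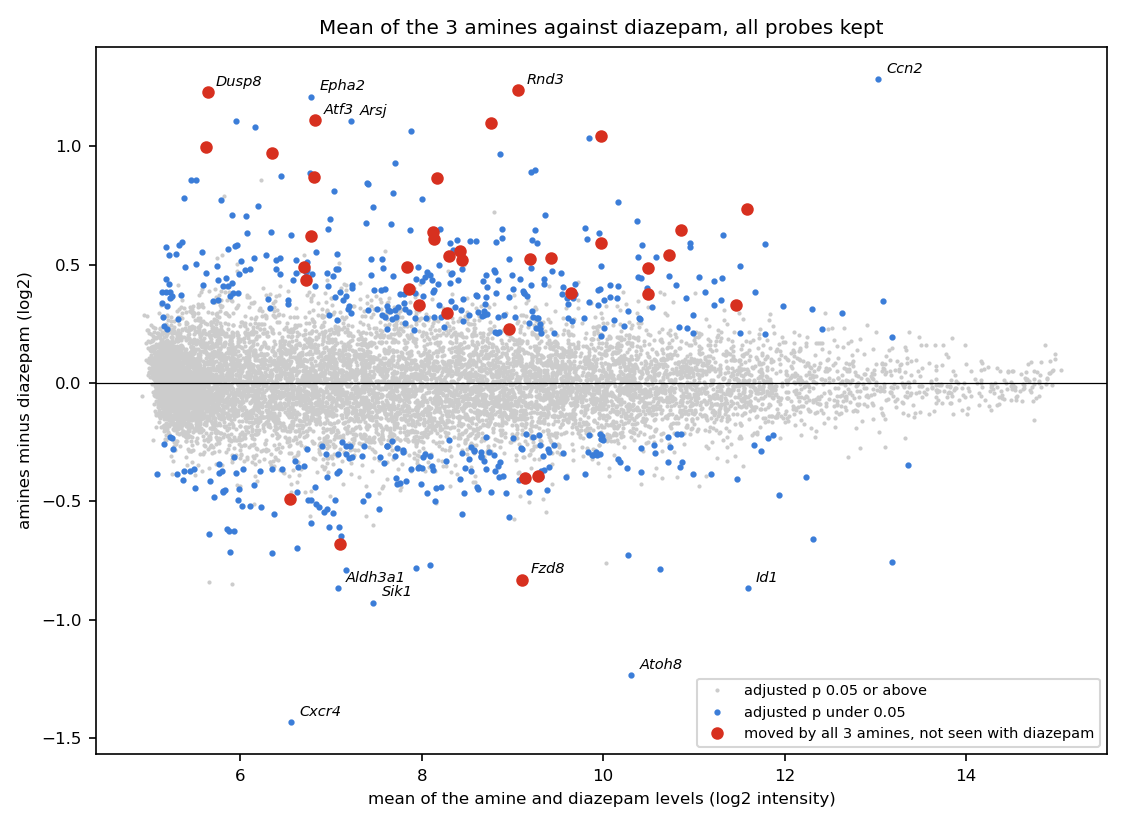
Amine mean minus diazepam (log2, vertical axis) against the mean of both levels (log2 intensity, horizontal axis) for the 11364 probes tested; blue points passed an adjusted p of 0.05 and red points are the 37 members. Labels mark the 6 largest differences in each direction among genes detected on all arrays of the higher group, from Ccn2 at 1.28 to Cxcr4 at -1.43.

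In Ccn2, Sik1 and Arsj, which are among the 12 genes labelled in the plot of the amine mean minus diazepam, diazepam itself differed from untreated cells. Ccn2, a secreted matricellular protein, read 13.46 to 13.73 (median 13.60) with desipramine, 14.22 to 14.46 (median 14.28) with fluoxetine and 12.89 to 13.36 (median 13.14) with haloperidol, against 12.17, 12.28, 12.52 and 12.59 with diazepam and 12.77 to 13.18 (median 12.99) without drug. It was lowered by diazepam (-0.58 ± 0.10, limma, adjusted p = 0.000769), and its haloperidol change of 0.14 did not pass (adjusted p = 0.441). Sik1, a salt-inducible kinase, read 6.91 to 7.74 (median 7.54) with desipramine, 6.41 to 6.78 (median 6.47) with fluoxetine and 6.76 to 7.29 (median 6.99) with haloperidol, against 7.72, 7.84, 7.99 and 8.17 with diazepam and 6.41 to 7.96 (median 6.84) in untreated cells. The untreated arrays overlapped with all other groups, the amine mean was 0.05 from them, and diazepam was 0.98 ± 0.19 above them (limma, adjusted p = 0.00597). Arsj, an arylsulfatase, was at 0.00 with haloperidol and -0.79 with diazepam from untreated cells.

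Epha2, an ephrin receptor, differed from diazepam by 1.21 ± 0.15 (limma, adjusted p = 4.53e-06) with a diazepam change of -0.08 from untreated cells, and was kept out of the shared set by haloperidol alone, at 0.51 over untreated cells (adjusted p = 0.0682). Cxcr4, a chemokine receptor, gave the largest lower difference, with a diazepam mean of 7.27 above the untreated mean of 6.71. It read 5.79 to 7.03 (median 6.01) with desipramine, 5.14 to 5.64 (median 5.47) with fluoxetine and 5.22 to 6.35 (median 5.80) with haloperidol, against 7.07, 7.23, 7.37 and 7.405 with diazepam and 6.16 to 7.45 (median 6.68) without drug. All amine arrays lay below all diazepam arrays, at -1.43 ± 0.19 (limma, adjusted p = 1.26e-05), while the desipramine change of -0.45 from untreated cells did not pass (adjusted p = 0.235). Aldh3a1, an aldehyde dehydrogenase, was -0.87 ± 0.20 from diazepam (limma, adjusted p = 0.00897, and 0.0735 without diazepam 1) but passed with no single drug against untreated cells.

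BMP targets and Id genes are induced by BMP receptors through Smad proteins. Of 10 measured, 0 were higher and 5 lower than with diazepam, with a median of -0.57, beside 2% of all named genes called lower. Against untreated cells 5 were lower, with a median of -0.31, and the diazepam median over untreated cells was 0.16 with 0 passing. Atoh8, a transcription factor under BMP control, differed by -1.23 ± 0.17 (limma, adjusted p = 1.21e-05), Id1 by -0.87 ± 0.11 (9.39e-06), the inhibitory Smad6 by -0.79 ± 0.11 (1.89e-05) and Hey1 as above, and Id2, named to complete the count, by -0.66 ± 0.16 (0.0109). The diazepam mean of Atoh8, 10.93, lay above its untreated mean of 10.40. By drug the list median over untreated cells was -0.55 with desipramine, -0.40 with fluoxetine and -0.08 with haloperidol, with 6, 5 and 1 genes lower beside 2.36%, 1.7% and 1.48% of all named genes, and Hey1 alone of the list is in the shared set.

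Of 23 measured immediate early genes, which respond to stimuli without new protein synthesis, 9 were higher and 2 lower than with diazepam, beside 3.47% and 2% of all named genes, with a median of 0.33. Over untreated cells 13 were higher with desipramine, 10 with fluoxetine and 3 with haloperidol, beside 3.97%, 2.64% and 2.59% of all named genes, and whether these counts differ between the drugs was not tested. The list median with haloperidol was 0.02. Myc was 0.97 above diazepam (limma, adjusted p = 8.79e-10), with 0.73, 0.74 and 0.02 for desipramine, fluoxetine and haloperidol and -0.47 for diazepam over untreated cells. Klf6 was 0.69 ± 0.12 above diazepam (limma, adjusted p = 0.000708), with a fluoxetine change of 1.08 and a desipramine change of 0.12 over untreated cells. Srf was the only list member in the shared set. The MAP kinase and G protein feedback list held 7 higher and 1 lower of 18 against diazepam, beside the same 3.47% and 2%, with a median of 0.25. Spry4, a Sprouty inhibitor of receptor signalling, led after Dusp8 at 1.08 ± 0.15, and Rgs2, which shortens G protein signalling, differed by -0.78 ± 0.12, diazepam having raised it by 0.71.

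**Figure D4:**
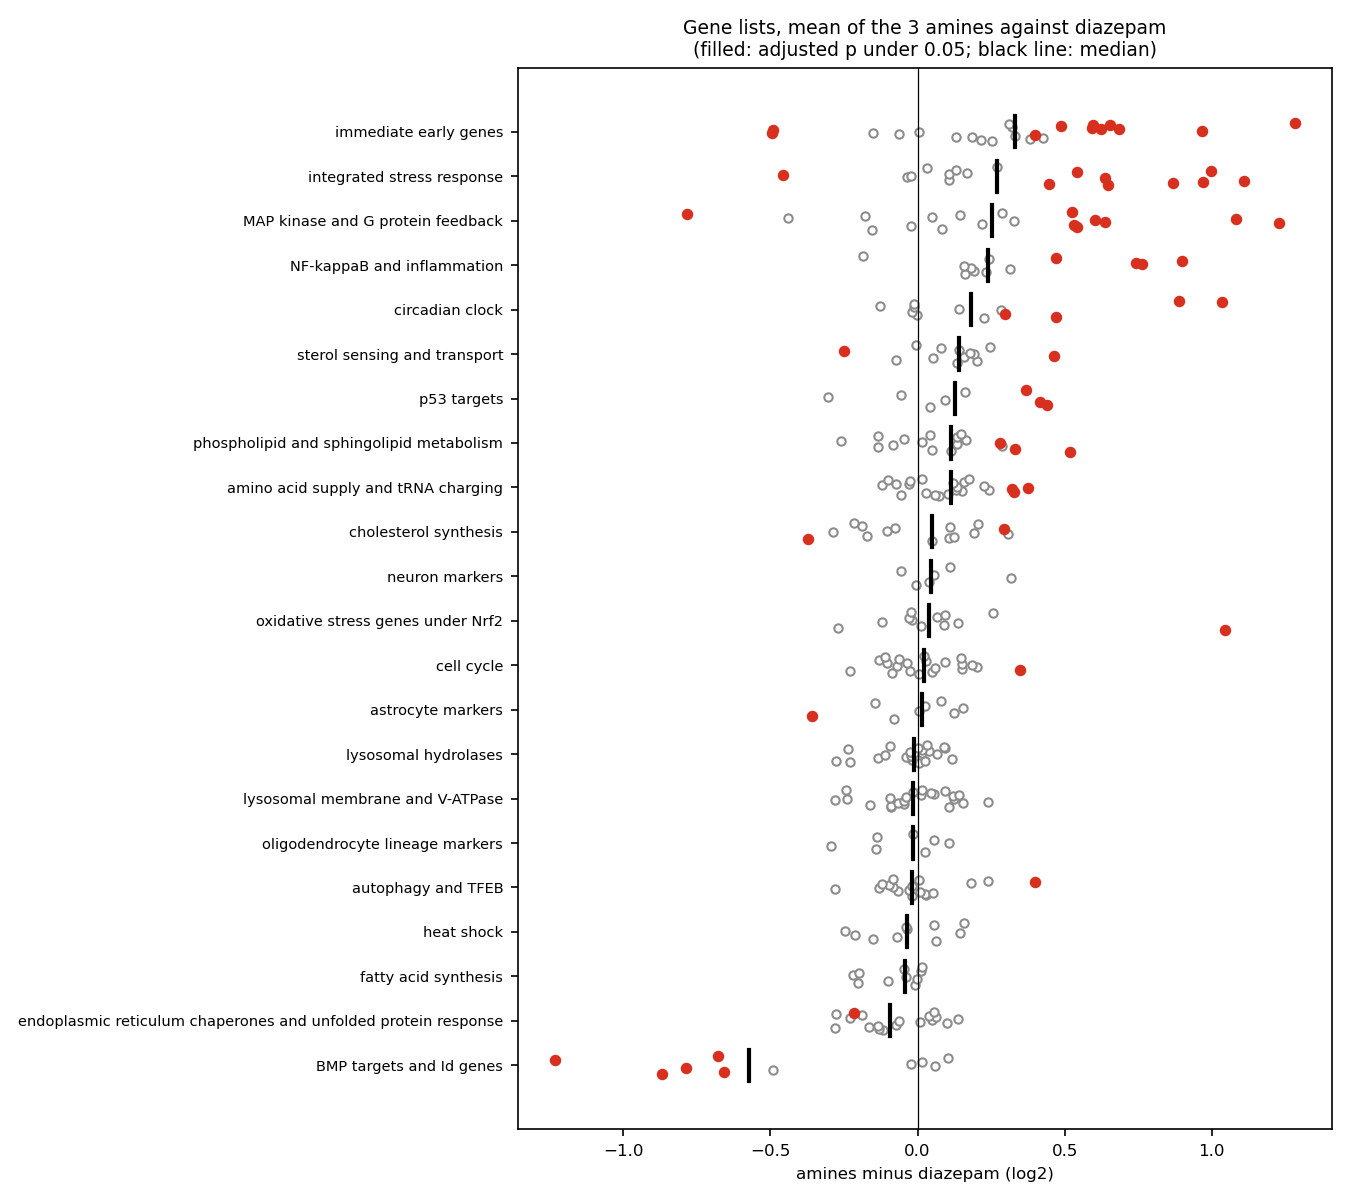
Amine mean minus diazepam (log2, horizontal axis) of the measured genes of each list, 1 list per row ordered by its median (black line); filled points passed an adjusted p of 0.05 over all probes. The immediate early and integrated stress response lists have medians of 0.33 and 0.27, and the BMP list has -0.57.

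Among genes of the lysosome, where these amines accumulate, few were called against diazepam at 2 h. Of all named genes, 3.47% were higher and 2% lower than with diazepam, and 1471 of 7958 had an unadjusted p under 0.05 in limma. Whether the lysosomal lists differ from these shares was not tested. Of 23 measured lysosomal hydrolases 0 passed against diazepam in limma and 3 had an unadjusted p under 0.05, with a median of -0.01, and the 95% intervals of all 23 lay between -0.47 and 0.47. Of 23 lysosomal membrane and proton pump genes 0 passed in limma and 3 had an unadjusted p under 0.05, with a median of -0.01 and intervals between -0.62 and 0.51. The largest differences were Ctsh, cathepsin H, at -0.28 (limma, adjusted p = 0.0855) and Atp6v0a1, a proton pump subunit, at -0.28 (adjusted p = 0.393). Atp6v0d1, another pump subunit, did not pass in the main fit and passed as lower in 5 of 12 other settings. Of 18 genes of autophagy and its regulator TFEB, Flcn, folliculin, passed at 0.40 (limma, adjusted p = 0.0232, and 0.0606 to 0.15 without diazepam 1 or 4) and 0 were lower. Over untreated cells 1 hydrolase was lower with desipramine, 1 higher with fluoxetine, and 1 higher and 1 lower with haloperidol. Of the membrane and pump genes, 1 was higher with desipramine and 1 lower with fluoxetine. These stand beside 3.97% higher and 2.36% lower of all named genes with desipramine, 2.64% and 1.7% with fluoxetine, and 2.59% and 1.48% with haloperidol. Ctsk, cathepsin K, changed by 1.02 with haloperidol, 0.46 with fluoxetine, -0.39 with desipramine and 0.34 with diazepam over untreated cells. Abcb9, lower with all amines as above, is in neither list.

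Of 15 measured genes of cholesterol synthesis 4 were higher and 0 lower with the amine mean against untreated cells, beside 2.68% and 1.51% of all named genes. Against diazepam 1 was higher and 1 lower, beside 3.47% and 2%, with a median of 0.05. Msmo1, a sterol demethylation enzyme, was higher than with diazepam by 0.29 (limma, adjusted p = 0.000924), and Pmvk, phosphomevalonate kinase, lower by -0.37 (adjusted p = 0.0373, and 0.0502 to 0.209 without fluoxetine 4 or diazepam 1 or 6). With haloperidol 5 passed as higher (Mvd, Idi1, Sqle, Msmo1 and Sc5d, by 0.27 to 0.52), with desipramine 2 and with fluoxetine 0, beside 2.59%, 3.97% and 2.64% of all named genes, and whether these counts differ between the drugs was not tested. Of 18 chaperone and unfolded protein response genes of the endoplasmic reticulum 0 were higher and 1, Manf, was lower than with diazepam (-0.22, limma, adjusted p = 0.047), and Manf kept that call in 7 of the 28 fits that left out 1 array. Of 10 heat shock genes and of 10 fatty acid synthesis genes 0 passed in limma, and 2 of each had an unadjusted p under 0.05. Of 13 sterol sensing and transport genes 1 was higher, Abca1, the cholesterol exporter, and 1 lower, Nr1h3, the liver X receptor alpha. Abca1 did not pass without diazepam 4 or 5 (limma, adjusted p 0.0656 to 0.11), nor Nr1h3 without diazepam 1, 5 or 6 (0.0618 to 0.105).

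Against the 3.47% of all named genes that were higher than with diazepam and the 2% that were lower, the remaining lists gave the following counts. Of 12 clock genes 4 were higher than with diazepam, led by Bhlhe40 at 1.03 ± 0.12 and Nfil3 at 0.89 ± 0.10, and of 12 NF-kappaB and inflammation genes 4, led by the chemokine Cxcl1 at 0.90 ± 0.25 (limma, adjusted p = 0.0345, and 0.0666 to 0.274 without diazepam 4, 5 or 6), and 0 of either list were lower. Neither list gave a member of the shared set. In the inflammation list desipramine raised 7 genes over untreated cells, fluoxetine 2 and haloperidol 0, beside 3.97%, 2.64% and 2.59% of all named genes, and the difference between these counts was not tested. Of 8 p53 targets 3 were higher, led by Mdm2 at 0.44 ± 0.08 (limma, adjusted p = 0.0006), and of 21 cell cycle genes 1 was. Among 8 astrocyte markers S100b was lower than with diazepam, though not without diazepam 1, 5 or 6 (limma, adjusted p 0.0876 to 0.206), and the others did not pass. Of the markers of neurons (6 measured), oligodendrocyte lineage (7), microglia (2), endothelium (2) and fibroblasts (3), 0 passed in limma, with 1, 1, 1, 0 and 0 at an unadjusted p under 0.05.

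The 3 amines were also compared with each other at their common dose and time, in 6 drug pairs that include diazepam. Desipramine and fluoxetine differed in 826 probes (7.27%), desipramine and haloperidol in 853 (7.51%) and fluoxetine and haloperidol in 467 (4.11%), adjusted over all probes and the 6 pairs. Against diazepam desipramine differed in 828 (7.29%), fluoxetine in 574 (5.05%) and haloperidol in 389 (3.42%). At least 1 pair of amines differed in 24 of the 37 members and in 13.1% of all probes tested. Desipramine had the largest change from untreated cells in 8 members, fluoxetine in 25 and haloperidol in 4, and in 36.1%, 31.2% and 32.6% of all probes tested.

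In the desipramine minus fluoxetine pair 15 members were lower (3.96% of all probes) and 2, Hmox1 and Pprc1, were higher (3.31%). In the fluoxetine minus haloperidol pair 17 were higher (2.42% of all probes) and 1, Fzd8, was lower (1.69%). Desipramine exceeded haloperidol in 4 members (3.95% of all probes) and was below it in 4 (3.56%). Chac1 was -1.25 ± 0.16 with desipramine relative to fluoxetine (limma, adjusted p = 7.03e-06) and 1.16 ± 0.16 with fluoxetine relative to haloperidol (adjusted p = 1.82e-05). Fhl2 gave -1.29 ± 0.09 and 0.98 ± 0.09 (limma, adjusted p = 8.35e-11 and 1.18e-08). Chac1 and Trib3 did not pass between desipramine and haloperidol, both at -0.08 with intervals of -0.41 to 0.24 and -0.46 to 0.29.

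In 13 members no pair of amines passed (limma). They were Chka, Cars1, Mnt, Dmtf1, Aars1, Utp15, Iars1, Tmem199, Lpin1, Pcgf3, Gpr37, Hey1 and Hoxa13. Their largest observed difference was 0.27, and the farthest bound of the 95% intervals ran from 0.18 for Tmem199 to 0.56 for Chka. For Tmem199 a difference between amines larger than this bound is thus outside the interval, whereas for Chka one of about the size of its own change over diazepam is not.

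**Figure D5:**
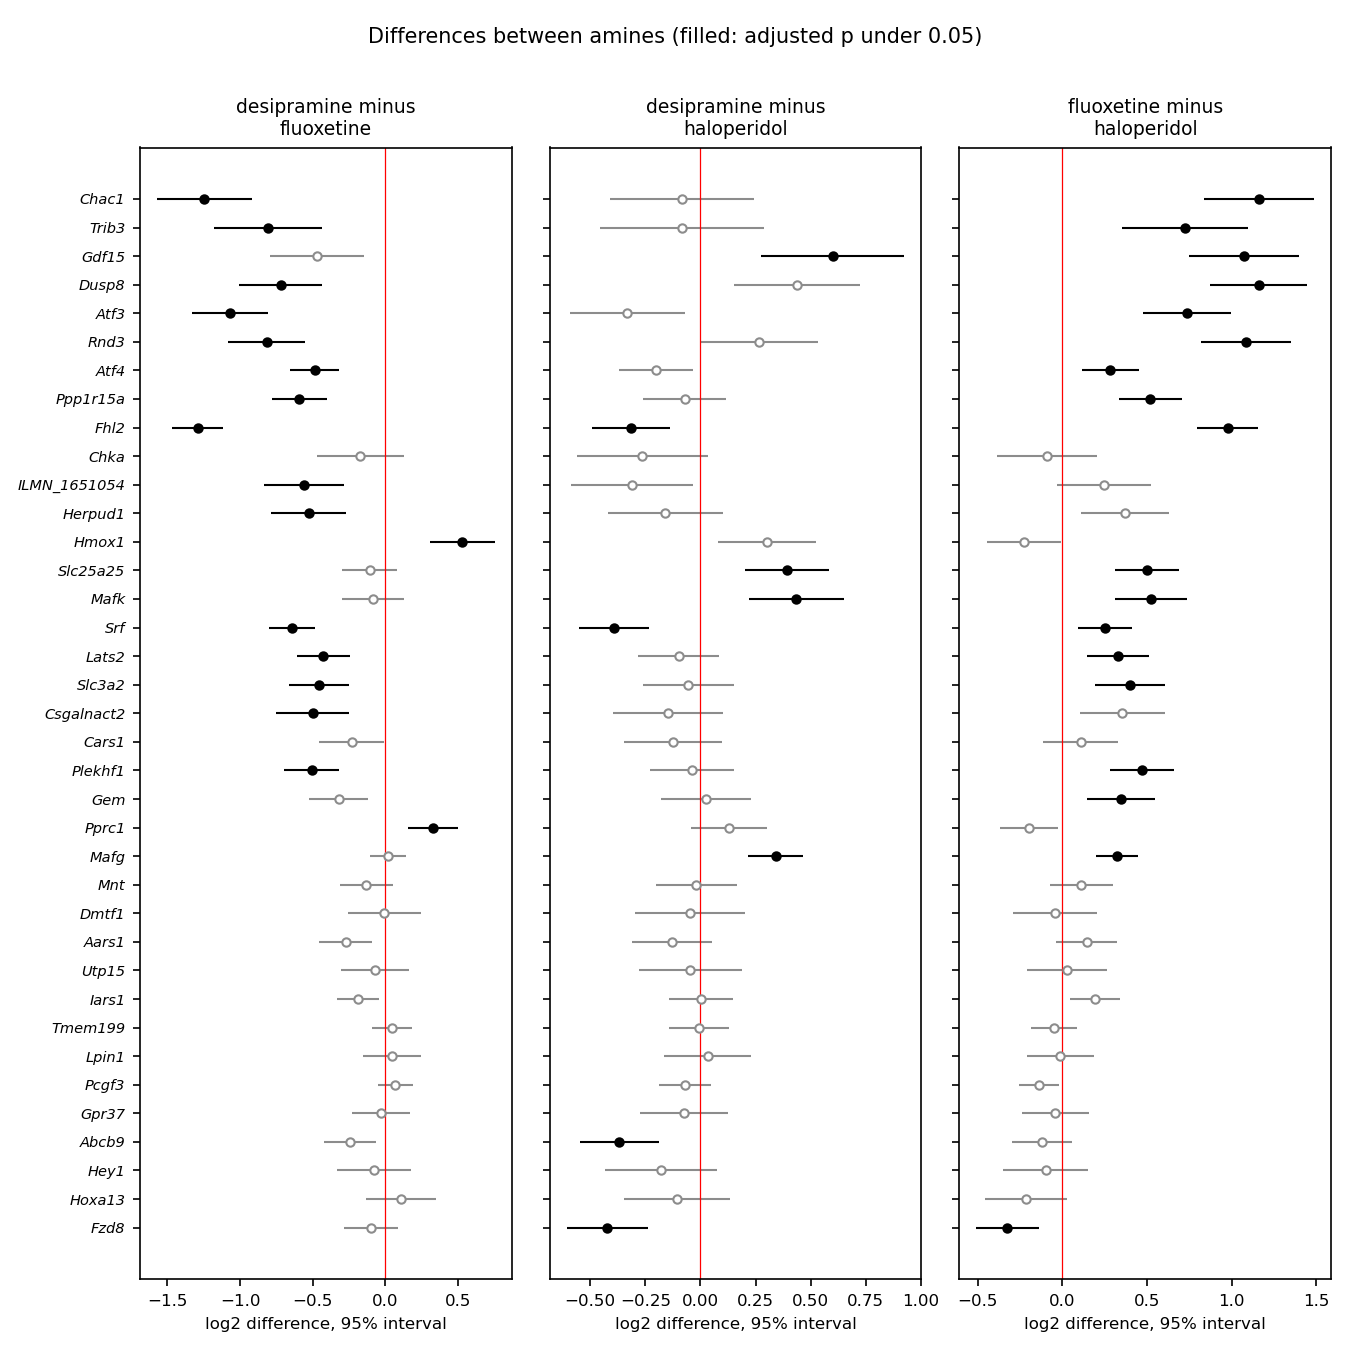
Differences between the amines (log2, horizontal axis, with 95% intervals) for the 37 members, 1 panel per pair; filled points passed an adjusted p of 0.05 over all probes and 6 pairs. In the desipramine minus fluoxetine panel 15 filled points lie left of 0, and in the fluoxetine minus haloperidol panel 17 lie right of it.

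Outside the shared set each amine had genes of its own. Desipramine led with Il1rl1, the interleukin-33 receptor, at 2.34 ± 0.30 over untreated cells, 1.68 above fluoxetine and 2.41 above haloperidol (limma, adjusted p = 0.000626 and 5.77e-06), and with Nppb, the B-type natriuretic peptide, at 1.99 over untreated cells, against 0.32 with fluoxetine and 0.06 with haloperidol. Dmp1, a matrix phosphoprotein, was 1.75 higher with desipramine than with fluoxetine, Sema7a, a semaphorin, 1.63, and the chemokine Ccl7 was 1.52 higher than with haloperidol. The desipramine arrays were widely spread in all of these genes. Il1rl1 read 5.87 to 9.04, its lowest array within the untreated range of 5.39 to 5.89, and Nppb read 6.11 to 8.57. Dmp1 read 7.81 to 9.78, Sema7a 8.29 to 10.025 and Ccl7 7.27 to 9.30, and each overlapped with untreated cells. Fluoxetine led with Ccn1, a matricellular relative of Ccn2, at 1.35 ± 0.18 over untreated cells, against -0.05 with desipramine and 0.18 with haloperidol. Cxcl1 was 1.43 ± 0.26 higher with fluoxetine than with haloperidol (limma, adjusted p = 0.000769). It read 8.86 to 10.529 with desipramine, 9.246 to 10.766 with fluoxetine and 8.18 to 9.259 with haloperidol, so haloperidol overlapped with both.

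Haloperidol stood apart from desipramine in Ctsk (-1.40 for desipramine minus haloperidol, limma, adjusted p = 3.93e-10), Wfikkn1, a secreted growth factor inhibitor (-1.26), and Mss51 (-1.25). Gnrh1, the gonadotropin-releasing hormone precursor, rose by 1.15 with fluoxetine and 1.14 with haloperidol and not with desipramine (-0.17), and the fluoxetine minus haloperidol difference was 0.01, with an interval of -0.26 to 0.28. Nfil3 likewise rose with fluoxetine (1.49) and haloperidol (0.73), and its desipramine change of 0.13 did not pass. Relative to haloperidol, fluoxetine was lower in Hexim1 (-0.86), an inhibitor of transcription elongation, Pik3r3 (-0.85), Zic2 (-0.85) and Dlx3 (-0.84), the last detected on 3 of 6 fluoxetine arrays.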

How the data were processed

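Biotin-labelled cRNA of rat C6 cells was hybridised to Illumina bead arrays. The authors deposited probe intensities that were not normalized between arrays, with a detection p-value per probe and array, and a second table of normalized intensities whose method is not given in the sources used here. GenomeStudio 1.9.0 is named in the submitters' processing notes. The deposited intensities were background-corrected by normexp from negative controls inferred from the detection p-values, quantile normalized and put on the log2 scale with an offset of 16 (neqc, limma 3.58.1, R 4.3.3), so each log2 value was computed here from the deposited intensities. The offset pulls small values together and understates changes of dim probes. The 11364 probes detected (p under 0.05) on 4 or more of the 28 arrays were kept. The number of arrays limits the precision. In the table, 4 columns match no sample and were not used.

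One mean per group was fitted over all 28 arrays with lmFit and eBayes, and tests were two-sided with Benjamini-Hochberg adjustment at 0.05 over the probes kept, and for the 6 drug pairs over probes and pairs together. Errors are standard errors of the fit. Of the probes, 13793 carry 1 symbol in the platform annotation and 8730 none, and 13752 symbols were matched by gene ID to RefSeq GRCr8. A gene has the value of its probe with the highest mean. Named genes are the 14 largest rises and 10 largest falls of the set (5 exist), the 6 largest each way of the amines minus diazepam, 4 each way for each pair of amines, and up to 4 per list by the size of that difference. The members and the 25 gene lists were chosen with earlier results of these data known. The fit was tested on simulated data. Alternatives covered normalization, offset, filter, replicate number, array weights, subsets of arrays and single arrays left out.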

Additional observations from a re-analysis of the deposited data

Results flagged for a closer look

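Of 135 groups of arrays examined for 27 named genes, 11 held 1 array far from the others, where chance flags about 1 in 20 groups. Among drug-treated arrays, Atf3 read 6.774 on haloperidol 6 (others 7.244 to 7.461), Rnd3 10.636 on fluoxetine 4 (others 10.149 to 10.291) and Mafk 8.942 on haloperidol 6 (others 9.146 to 9.214). Desipramine 6 was low in Sik1, at 6.914 (others 7.452 to 7.74), and in Aldh3a1, at 6.141 (others 7.232 to 7.683).

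Among untreated arrays, replicate 1 stood apart in Rnd3 at 8.382 (others 8.713 to 8.906), in Mafk at 9.357 (others 8.533 to 8.669) and in Aldh3a1 at 7.672 (others 6.291 to 6.729). Replicate 5 was low in Fhl2 at 7.524 (others 7.701 to 7.779) and in Epha2 at 5.757 (others 6.229 to 6.489), and replicate 3 was high in Srf at 10.215 (others 9.98 to 10.053). All values are log2 intensities.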

How the results depend on the processing

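The labels do not say what a replicate number marks, and same-numbered arrays deviated together in most but not all pairs of arrays (46 of 52 correlated above 0.1, r from -0.005 to 0.51), so the block is given as an alternative. With the replicate number as a block (replicate block), the calls were 1005 for the amines minus diazepam, 798 for the amines minus untreated cells, 117 in common and 72 not seen with diazepam, and 35 of the 37 members remained, without Trib3 and Slc3a2. Of the 72, 48 were higher and 24 lower. The pairs gave 1360 (desipramine minus fluoxetine), 1345 (desipramine minus haloperidol), 826 (fluoxetine minus haloperidol), 1317, 1048 and 806 (desipramine, fluoxetine and haloperidol minus diazepam). In the same order, arrays 1, 4, 5 and 6 of every group gave 335, 155, 17 and 8, and 229, 279, 142, 357, 267 and 192 for the pairs, and with the block desipramine minus fluoxetine gave 496. Arrays 1 to 4 gave 137, 229, 36 and 17, with 259 for fluoxetine minus haloperidol and 431, 264 and 105 against diazepam. Arrays 5 and 6 gave 58, 4, 0 and 0, and 4, 7, 4, 21, 29 and 9 for the pairs. These subsets hold fewer arrays.

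A term for arrays 5 and 6, chosen after seeing the data, gave 656 for the amines minus untreated cells, 94 in common, 56 not seen with diazepam, 717 for fluoxetine minus haloperidol, and 876 and 649 for fluoxetine and haloperidol minus diazepam. Of the 56, 41 were higher and 15 lower. At an adjusted p of 0.01, 31 were common and 18 not seen with diazepam. At 0.05, 19 remained when each amine had to differ from diazepam. Leaving out 1 array gave 287 to 612 for the amines minus diazepam, 253 (without untreated 4) to 439 for the amines minus untreated cells, 50 to 65 in common and 27 to 41 not seen with diazepam. The pairs ranged from 578 to 1089, 619 to 1096, 390 to 530, 631 to 1039, 431 to 645 and 236 (without diazepam 5) to 441. The causes were not tested. Median scaling, the authors' normalized values, the offset, both filters and array weights kept these counts within 1.5 times, and so did a mean without 1 amine, run for the amines minus diazepam and minus untreated cells alone. Of the values of named genes, 4672 stayed on the same side of the threshold, 254 no longer passed and 56 newly passed. Of those that passed in the main or the alternative fit, 0 reversed. Values that passed in neither fit were not compared for direction, and some of these small differences changed sign, such as Pik3r3 (-0.12 to 0.25).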
